A study of Mus musculus with 14 samples.

Results

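The S100 genes encode small proteins, most of which bind calcium. The 8 genes described here were S100a8, S100a9, S100a11, S100a10, S100a6, S100a4, S100a1 and S100a13, chosen by symbol from the 55487 gene identifiers of the count tables. They were 8 of the 17 genes with an S100 symbol, and each was followed through RNA-seq of 3 bone marrow cell populations with and without interleukin-1β (IL-1β). LSK cells (Lin-Sca1+c-kit+, the fraction enriched for hematopoietic stem cells) and LK cells (Lin-c-kit+, the myeloid progenitors) were sorted from C57BL/6 recipients that had been lethally irradiated and transplanted with bone marrow of pI-pC-induced Mx1Cre; Jak2VF/+ mice, so that the controls carried the heterozygous Jak2V617F knock-in as well. Mx1Cre is switched on by pI-pC through interferon and acts in cells other than blood cells too. The recipients then received PBS (3 libraries of each population) or 0.5 μg of IL-1β (2 libraries of each population) by intraperitoneal injection, 3 doses a week for 16 weeks. The cultures called MSC, bone marrow stromal cells, were grown from wild-type C57BL/6 marrow for 21 days and exposed to PBS (2 libraries) or IL-1β at 5 ng/ml (2 libraries) for 72 h. Sorted cells and cultures therefore differed in genotype, treatment route and duration as well as in cell type. Ages and sexes were not given for each sample, and the labels do not say which libraries came from separate animals or cultures, so that p-values measure the spread between these libraries, which may be technical.

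S100 proteins fold around a pair of EF-hand loops and mostly pair into dimers. On binding calcium, most of them expose a surface through which they contact target proteins. S100A8 and S100A9 join into calprotectin, the most abundant cytosolic protein of neutrophils, which binds zinc and manganese and, once released, is sensed by the receptors TLR4 and RAGE (encoded by Ager). S100A10 and S100A11 bind annexins at membranes, whereas S100A4 and S100A6 are best known from motile, mesenchymal and dividing cells, S100A1 from muscle and brain, and S100A13 for its part in the release of proteins that lack a signal peptide.

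All 8 genes lie on mouse chromosome 3 (GRCm38) within 3054 kb. S100a1 (chr3:90511034-90514392, minus strand) and S100a13 (chr3:90514435-90524581, plus strand) stand head to head, and their RefSeq transcripts start 105 bases apart. S100a4 (chr3:90603771-90606045), S100a6 (chr3:90612882-90624181) and S100a8 (chr3:90668978-90670035) follow on the plus strand, and S100a9 (chr3:90692632-90695721) on the minus strand 22596 bases beyond S100a8. S100a11 (chr3:93520488-93526287) and S100a10 (chr3:93555080-93564643) form a separate plus-strand pair. The spans are those of the deposited tables and equalled GENCODE M21 for all 8 genes. Of the 584 exonic bases of S100a4, 302 are shared on the same strand with the predicted gene Gm42674, which had 0 counts in all 14 libraries, and read pairs that fit both genes were not counted.

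The upstream sequences of the genes with the largest responses are shown because S100a8 and S100a9 had the largest changes in the sorted cells, S100a11 moved in opposite directions in LK cells and MSC, and S100a4 was counted almost exclusively in MSC. RefSeq windows of the 250 bases before the start (GRCm38.p6) were found for 7 of the 8 genes, S100a10 being the one without. The motifs of C/EBP, PU.1, the TATA box, STAT and NF-kB were searched on both strands. Capitals mark matches, each line runs 5′ to 3′ on the strand of the gene, and bases that GENCODE M21 places in an untranslated first exon are left out, except for a stretch of 30 bases around the TATA match of S100a8.
S100a8, chr3:90668821-90668977, plus strand: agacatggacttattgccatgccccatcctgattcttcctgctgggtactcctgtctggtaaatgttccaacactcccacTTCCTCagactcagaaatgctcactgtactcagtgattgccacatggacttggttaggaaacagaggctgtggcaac
S100a8, chr3:90669029-90669058, plus strand: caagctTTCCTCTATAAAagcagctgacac
S100a9, chr3:90695722-90695971, minus strand: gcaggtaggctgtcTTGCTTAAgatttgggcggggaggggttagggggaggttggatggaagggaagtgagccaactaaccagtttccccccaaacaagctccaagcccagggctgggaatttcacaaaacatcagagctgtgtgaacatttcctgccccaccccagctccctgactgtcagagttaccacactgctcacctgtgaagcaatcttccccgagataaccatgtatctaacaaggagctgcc
S100a11, chr3:93520246-93520487, plus strand: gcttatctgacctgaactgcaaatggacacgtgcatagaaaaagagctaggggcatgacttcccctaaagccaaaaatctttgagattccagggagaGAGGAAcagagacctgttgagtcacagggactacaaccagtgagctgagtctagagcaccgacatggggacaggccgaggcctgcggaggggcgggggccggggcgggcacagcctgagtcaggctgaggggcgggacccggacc
S100a4, chr3:90603520-90603769, plus strand: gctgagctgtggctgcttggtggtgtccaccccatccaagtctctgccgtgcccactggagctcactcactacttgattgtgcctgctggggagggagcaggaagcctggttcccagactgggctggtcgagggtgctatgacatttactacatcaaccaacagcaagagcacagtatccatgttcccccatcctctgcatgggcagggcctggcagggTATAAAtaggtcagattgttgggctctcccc

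The letters of the TATA box, TATAAA, stood 30 to 25 bases before the RefSeq start of S100a8 and 31 to 26 bases before that of S100a4, and occurred in 12.4% of all 32851 windows of this length. The PU.1 letters, read on the other strand as TTCCTC, occurred at 2 places before S100a8, of which the nearer directly adjoins the TATA match, and as GAGGAA once before S100a11, against 23.3% of all windows. The C/EBP letters, TTGCNNAA, occurred once, before S100a9, against 9.56% of all windows. The STAT letters, TTCNNNGAA, and the NF-kB motif, found in 7.02% and 7.25% of all windows, were in none of the 7 windows, which says only that these letters are not there.

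The measured quantity was the count of read pairs per gene. Levels are given as CPM (counts scaled to a common library size, with TMM factors over all 14 libraries), and levels of different genes are set side by side as FPKM, which also divides by exonic length, unless CPM is named. The libraries held 4393233 to 30871055 counted read pairs, and each IL-1β library of LSK or LK cells was shallower than each PBS library of the same population (LSK 4393233 to 8641124 against 12172400 to 16271408, LK 6367352 to 7652483 against 12804883 to 18544346), so depth and treatment cannot be told apart there. PBS replicate 2 of LSK stood apart from the other PBS libraries in several of the genes below. In the MSC libraries the summed level of 10 macrophage markers (15900 to 20300 CPM with PBS, 41300 to 42400 CPM with IL-1β) exceeded that of 10 mesenchymal markers (1810 to 3480 and 4990 to 5340 CPM). The cultures were thus not mesenchymal cells alone, and in bulk RNA a change in the number of cells of a type cannot be told apart from a change in RNA per cell.

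**Figure D1:**
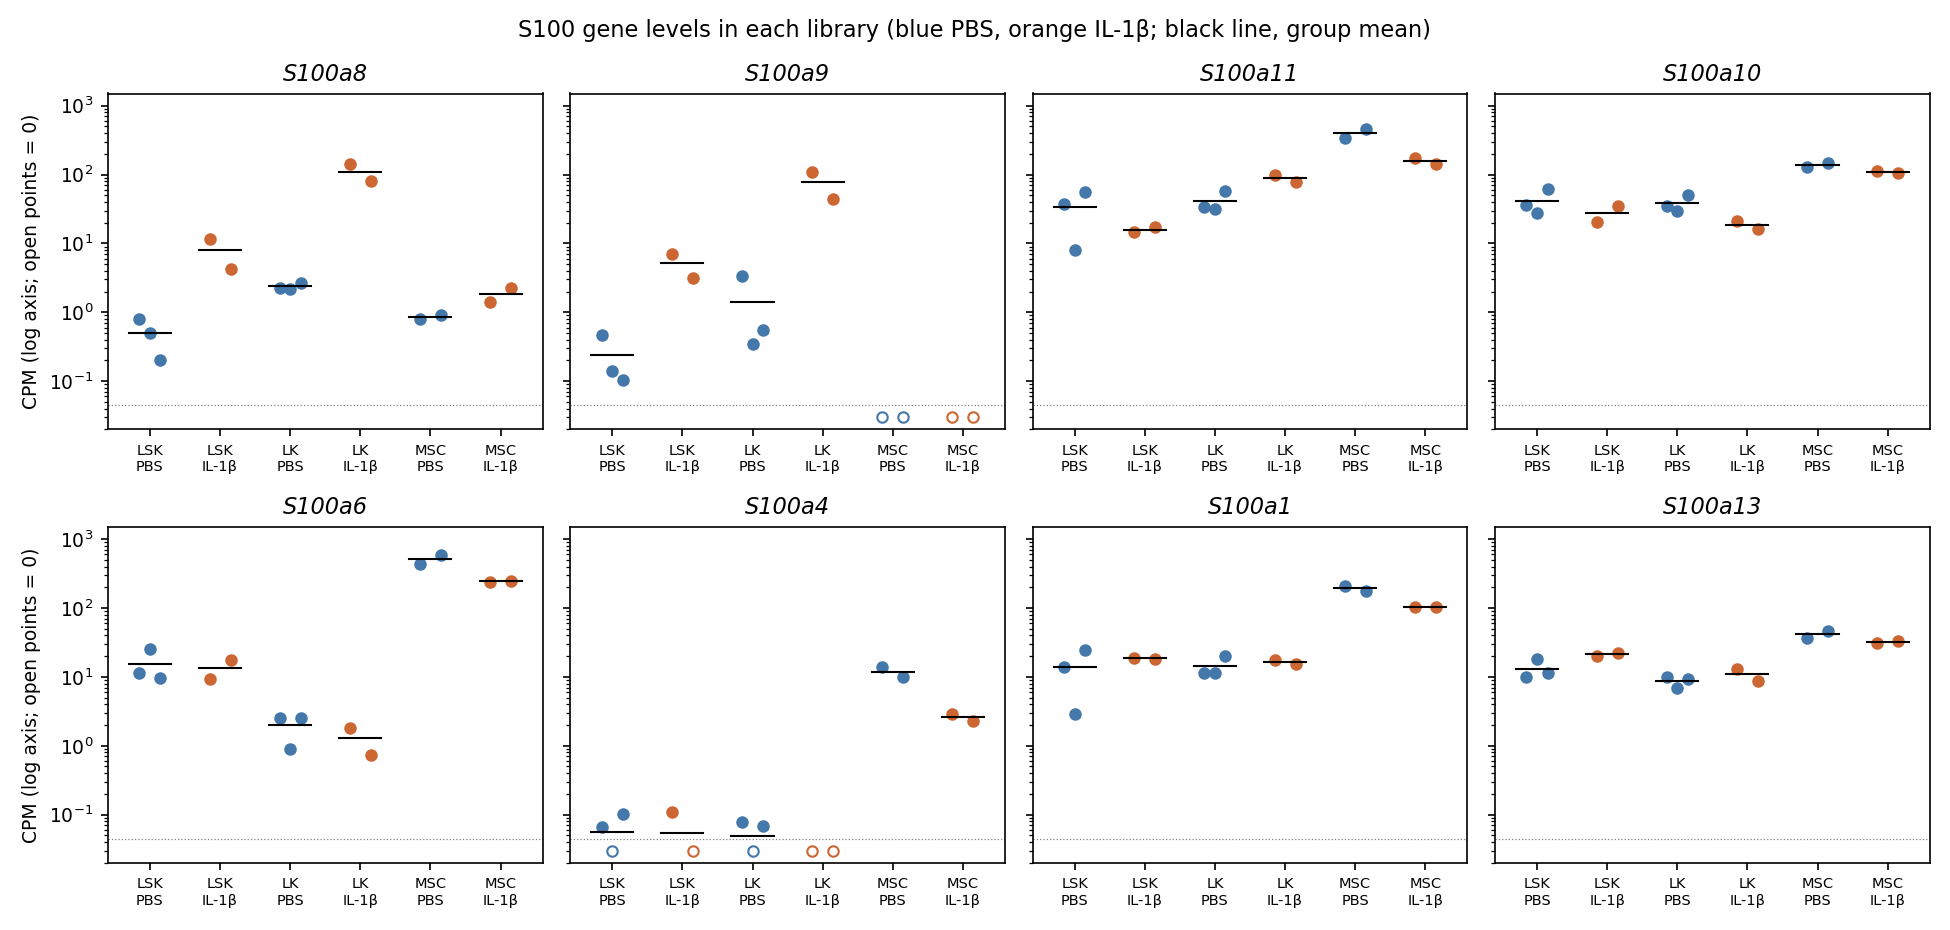
Level of each S100 gene in CPM (log axis) in every library, grouped by population and treatment, with PBS in blue, IL-1β in orange and the group mean as a black line; open points under the dotted line are libraries with 0 counts. S100a8 and S100a9 were highest in the 2 LK IL-1β libraries, whereas the other 6 genes were highest in MSC.

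Of the 8 genes, 7 passed the filter on low counts and were tested in each population, with S100a4 left out in the sorted cells and S100a9 in MSC. A gene is called here when its edgeR p, adjusted by Benjamini and Hochberg over all genes tested, is under 0.05 and its log2 fold change is above 0.5 in size. With IL-1β, 0 of the 7 genes were called in LSK cells, where 0.32% of all genes tested were called higher and 0.312% lower. In LK cells 3 were called higher and 0 lower, where 6.77% of all genes tested were called higher and 2.57% lower. In MSC 0 were called higher and 4 lower, where 7.14% of all genes tested were called higher and 4.31% lower. S100a9 in LK cells, S100a8 and S100a9 in LSK cells and S100a8 in MSC would not have passed the filter on the PBS libraries alone. They passed through the IL-1β libraries, where they were higher. The call of S100a9 in LK cells is therefore no support.

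PBS and IL-1β libraries stood apart without overlap, IL-1β higher, for 3 of the 7 genes in LSK cells (18.3% of all genes tested), 3 in LK cells (19%) and 1 in MSC (33.3%). These counts include the genes that passed the filter only with the IL-1β libraries. They stood apart with IL-1β lower for 0 genes in LSK cells (21.1%), 1 in LK cells (29.4%) and 6 in MSC (26.2%). The median log2 fold change of the 7 genes was 0.42 in LSK and LK cells and -0.94 in MSC, against -0.06, -0.03 and 0 over all genes tested. The share of all read pairs that fell on the 8 genes was 0.00881 to 0.0196% with PBS and 0.0108 to 0.012% with IL-1β in LSK cells. In LK cells it was 0.00884 to 0.0149% with PBS and 0.0257 to 0.0431% with IL-1β, and in MSC 0.101 and 0.118% in the PBS libraries against 0.0524 and 0.0517% in the IL-1β libraries.

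S100a8 and S100a9 had the largest fold changes of the family with IL-1β, in both sorted populations. In LK cells, S100a8 was at 2.26, 2.21 and 2.69 CPM in the PBS libraries and at 141 and 79.2 CPM in the IL-1β libraries, counts of 29 to 44 against 533 and 1156. Both IL-1β libraries lay far above all PBS libraries. The log2 fold change was 5.61 ± 0.28 (SE), 48.7-fold, and S100a8 was called higher (edgeR quasi-likelihood test, Benjamini-Hochberg adjusted p = 0.000262).

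S100a9, the partner of S100a8, was at 3.35, 0.351 and 0.552 CPM in the LK PBS libraries and at 109 and 44.8 CPM with IL-1β. The groups did not overlap, but PBS replicate 1 was far above the other PBS libraries. The log2 fold change was 5.97 ± 0.96 (SE), and S100a9 was called higher (edgeR adjusted p = 0.0362). As it passed the filter only with the IL-1β libraries, that result is no support. The call was lost without a filter on low counts (adjusted p = 0.102) and without PBS replicate 2 (0.0579), PBS replicate 3 (0.122), IL-1β replicate 1 (0.182) or IL-1β replicate 2 (0.0768).

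In LSK cells the same pair was much less abundant. S100a8 was at 0.793, 0.495 and 0.206 CPM with PBS and at 11.7 and 4.21 CPM with IL-1β, from 4 to 12 counts against 107 and 19. S100a9 was at 0.463, 0.141 and 0.103 CPM with PBS, where 2 libraries held only 2 counts each, and at 7.12 and 3.10 CPM with IL-1β. Neither gene overlapped between treatments.

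The log2 fold changes in LSK cells were 4.0 ± 0.85 (SE) for S100a8 and 4.41 ± 1.02 (SE) for S100a9. Neither was called by edgeR (adjusted p = 0.0720 and 0.0839). Neither gene would have passed the filter on the LSK PBS libraries alone, so calls within LSK cells made after that filter are no support. Both were called by DESeq2 (adjusted p = 0.000235 and 0.000972), by edgeR without a filter on low counts (0.00147 and 0.0102), and by edgeR fitted jointly with the LK libraries (0.00261 and 0.0182). DESeq2 was run after the same filter, so its calls fall under that limit. S100a9 would not have passed the filter of the joint fit on the PBS libraries alone, so that call is no support either. The difference of the response between LSK and LK cells was -1.57 ± 0.71 (SE, log2) for S100a8 and -1.48 ± 1.36 for S100a9, and was not called for either (edgeR interaction test, adjusted p = 0.346 and 0.655).

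The ratio of S100a8 to S100a9 counts was 1.65 and 1.36 in the LSK IL-1β libraries and 1.29 and 1.77 in the LK IL-1β libraries. In the LK PBS libraries, which held 7 to 43 counts of S100a9, it was 0.674, 6.29 and 4.88. The LSK PBS library with the most counts of the pair (12 and 7) had a ratio of 1.71. The 4 IL-1β libraries thus lay between 1.29 and 1.77, and the LK PBS libraries on both sides of that range.

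In MSC the pair was split. S100a9 had 0 counts in all 4 libraries, where 3 counts would have been 0.124 to 0.592 CPM. S100a8 had 4 and 10 counts with PBS (0.788 and 0.912 CPM) and 34 and 21 counts with IL-1β (1.41 and 2.22 CPM), higher in both IL-1β libraries. Its log2 fold change of 0.99 ± 0.55 (SE) was not called (edgeR adjusted p = 0.287).

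Genes of neutrophil granules were followed beside S100a8 and S100a9. Summed over the 12 genes of a late granule list (Lcn2, Ltf, Camp, Ngp and others), the level was 9.05 to 20.4 CPM with PBS and 166 to 200 CPM with IL-1β in LSK cells, and 14 to 28.1 CPM against 257 to 468 CPM in LK cells. Among its 9 tested genes, the calls were 1 higher in LSK cells (Lcn2) and 4 higher in LK cells (Lcn2, Wfdc21, Chil3 and Cybb), with 0 lower. Chil3 held 2 to 20 counts in the LK PBS libraries and would not have passed the filter on these alone, so its call is no support. Of all genes tested, 0.32% were called higher in LSK cells and 6.77% in LK cells. Camp, Ngp, Ltf, Mmp8 and Cxcr2 were tested in LK cells and not called. Mmp8 had log2 fold changes of 0.38 in LSK and -0.10 in LK cells, and Cxcr2 had 0.23 in LK cells. Those of Ngp, Ltf and Camp in LK cells were larger, at 4.11 ± 1.5, 3.75 ± 1.08 and 3.38 ± 1.5 (SE). Ngp, Ltf and Camp would not have passed the filter on the LK PBS libraries alone either. Lcn2, which encodes the iron-scavenging lipocalin-2, took most of that sum in LSK cells with IL-1β (111 and 132 CPM), while the mature neutrophil marker Ly6g had 0 counts in every library. The same list summed to 617 to 751 CPM with PBS and 1300 to 1400 CPM with IL-1β in MSC, but there it was nearly all Cybb (594 to 663 and 1160 to 1240 CPM), an oxidase gene that macrophages also express, while Ngp and Retnlg had 0 counts. Of its 5 genes tested in MSC, 4 were called higher and 0 lower, where 7.14% of all genes tested were called higher and 4.31% lower. These were Lcn2, Camp, Mmp8 and Cybb, with log2 fold changes of 6.07, 5.45, 2.99 and 0.90. Lcn2 (4 and 11 counts) and Camp (1 and 2 counts) would not have passed the filter on the MSC PBS libraries alone, so their calls are no support.

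The primary granule genes Elane, Mpo, Prtn3, Ctsg and Ms4a3 summed to 2010 to 2830 CPM with PBS and 9250 to 10900 CPM with IL-1β in LSK cells, and to 4410 to 9390 and 17300 to 20000 CPM in LK cells. IL-1β was followed by a call of 4 of these 5 genes in LSK cells and of all 5 in LK cells, each time higher. The shares of all genes tested that were called higher were 0.32% in LSK and 6.77% in LK cells. The 6 markers of stem and progenitor cells (Kit, Cd34, Flt3, Ly6a, Mecom and Hlf) summed to 1290 to 1620 CPM in LSK cells with PBS and to 737 to 842 CPM with IL-1β. The part of these shifts in the S100a8 and S100a9 values was not tested.

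**Figure D2:**
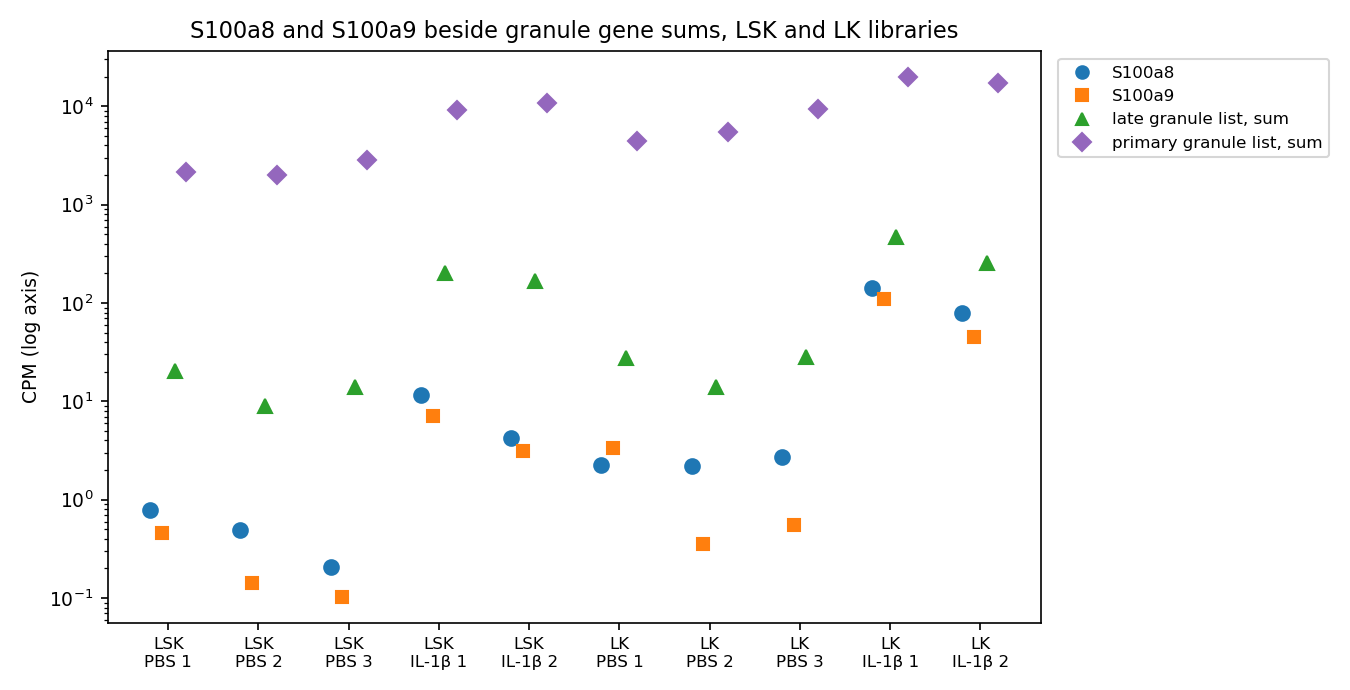
CPM (log axis) of S100a8, S100a9 and the summed late and primary granule lists in each of the 10 LSK and LK libraries. In each population the 2 IL-1β libraries had more of all 4 quantities than any PBS library, and S100a8 and S100a9 stayed below the late granule sum throughout.

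S100a11, whose product binds annexin A1, was the third gene called in LK cells. It was at 33.7, 31.3 and 57.5 CPM with PBS and at 99.2 and 78.0 CPM with IL-1β. Both IL-1β libraries lay above all PBS libraries, and the log2 fold change was 1.19 ± 0.28 (SE; edgeR adjusted p = 0.0476). The call was lost without PBS replicate 1 (adjusted p = 0.117), PBS replicate 2 (0.112), IL-1β replicate 1 (0.316) or IL-1β replicate 2 (0.127), and in the joint fit with LSK libraries (0.407).

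S100a10, the partner of annexin A2, went the other way in LK cells. It was at 35.4, 29.5 and 50.4 CPM with PBS and at 20.9 and 16.2 CPM with IL-1β, with no overlap. The log2 fold change of -0.97 ± 0.26 (SE) was just short of a call (edgeR adjusted p = 0.0537). It was called lower by DESeq2 (adjusted p = 0.0072), with upper-quartile factors (0.0427), without a filter on low counts (1.93e-06), without PBS replicate 2 (0.0497) and without PBS replicate 3 (0.00968).

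In LSK cells S100a11 was at 37.8, 7.99 and 56.3 CPM with PBS and at 14.4 and 17.1 CPM with IL-1β. PBS replicate 2 lay below both IL-1β libraries, the other PBS libraries above them. The log2 fold change of -1.13 ± 0.66 (SE) was not called (edgeR adjusted p = 0.381), but without PBS replicate 2 it was -1.57 and was called lower (0.041). The difference between the LSK and LK responses of S100a11 was -2.36 ± 0.84 (SE, log2) and was not called (edgeR interaction test, unadjusted p = 0.0171, adjusted p = 0.263). Without PBS replicate 2 of LSK it was -2.84 and was called (adjusted p = 0.0339), as it was with no filter on low counts (-2.25, adjusted p = 1.24e-06).

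S100a10 in LSK cells was at 36.2, 27.4 and 61.8 CPM with PBS and at 20.6 and 34.4 CPM with IL-1β. The groups overlapped, and the log2 fold change was -0.62 ± 0.40 (SE; edgeR adjusted p = 0.431).

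S100a6, S100a1 and S100a13 were not called with IL-1β in either sorted population, with log2 fold changes from -0.51 to 0.68 (edgeR adjusted p from 0.347 to 0.850). S100a6 was at 11.2, 25.4 and 9.62 CPM in LSK cells with PBS and at 9.42 and 17.3 CPM with IL-1β, and at 2.49, 0.904 and 2.55 against 1.83 and 0.743 CPM in LK cells. The treatments overlapped in both populations. S100a1 was at 13.8, 2.90 and 24.4 CPM in LSK cells with PBS and at 18.6 and 18.4 CPM with IL-1β, and at 11.4, 11.2 and 20.3 against 17.4 and 15.3 CPM in LK cells. It too overlapped, and its lowest value was in PBS replicate 2 of LSK. Without PBS replicate 3 of LK, S100a1 was called higher in LK cells (log2 fold change 0.63, edgeR adjusted p = 0.0379).

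S100a13, the head-to-head neighbour of S100a1, was at 9.98, 18.2 and 11.5 CPM in LSK cells with PBS and at 20.3 and 22.2 CPM with IL-1β. Both IL-1β libraries were above all PBS libraries, yet the log2 fold change of 0.68 ± 0.37 (SE) was not called (edgeR adjusted p = 0.347). In LK cells it was at 9.81, 6.93 and 9.25 against 13.1 and 8.77 CPM, which overlapped. S100a4 had at most 2 counts in any of the 10 LSK and LK libraries and was not tested in them.

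**Figure D3:**
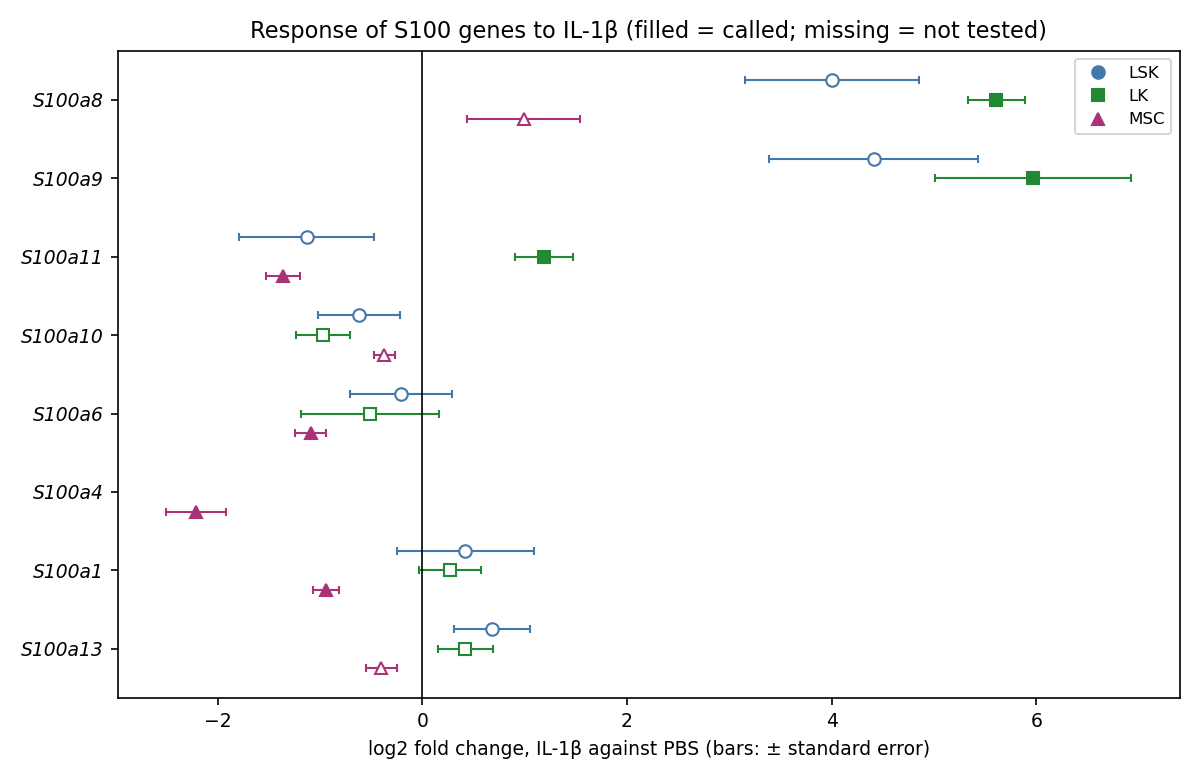
Log2 fold change of each S100 gene with IL-1β against PBS, with its standard error, in LSK (circles), LK (squares) and MSC (triangles); filled markers are called, and genes not tested are missing. S100a8 and S100a9 lay to the right in LSK and LK cells, whereas S100a11, S100a6, S100a4 and S100a1 were called lower in MSC.

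In MSC, IL-1β was followed by lower levels of most of the family. S100a11 was at 337 and 452 CPM with PBS and at 175 and 141 CPM with IL-1β, giving a log2 fold change of -1.36 ± 0.17 (SE; edgeR adjusted p = 0.00941). S100a6 was at 440 and 584 CPM with PBS and at 241 and 250 CPM with IL-1β, giving a log2 fold change of -1.09 ± 0.15 (SE; adjusted p = 0.0131). For both genes each IL-1β library was below each PBS library.

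S100a1 was at 208 and 177 CPM with PBS and at 103 CPM in both IL-1β libraries, giving a log2 fold change of -0.94 ± 0.13 (SE; edgeR adjusted p = 0.0116). S100a4, widely used as a fibroblast marker though macrophages express it too, was at 13.8 and 10.1 CPM with PBS and at 2.85 and 2.32 CPM with IL-1β. Its log2 fold change, -2.21 ± 0.29 (SE; adjusted p = 0.0106), was the largest fall of the family, and again the groups did not overlap. Behind these levels stood 70 and 111 counts in the PBS libraries and 69 and 22 counts in the IL-1β libraries.

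S100a10 was at 130 and 145 CPM with PBS and at 113 and 105 CPM with IL-1β, and S100a13 at 37.1 and 46.3 against 31.5 and 33.6 CPM. Both were lower in each IL-1β library, but their log2 fold changes of -0.37 ± 0.10 and -0.40 ± 0.15 (SE) were not called (edgeR adjusted p = 0.0682 and 0.135). Without PBS replicate 2, S100a13 was -0.53 and was called lower (adjusted p = 0.00183). The calls of S100a11, S100a6, S100a1 and S100a4 were lost without IL-1β replicate 1 (adjusted p = 0.143 to 0.247) and without IL-1β replicate 2 (0.149 to 0.167).

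Of the 10 macrophage markers, whose sum is given above, IL-1β left 6 called higher and 0 lower in MSC, and of 9 tested mesenchymal markers 1 was called higher and 0 lower. Of all genes tested in MSC, 7.14% were called higher and 4.31% lower. The part of cell composition in the lower S100 levels was not tested.

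Of the 9 other genes with an S100 symbol, S100a16 and S100b alone passed the filter, and only in MSC. S100a16 had 193 and 369 counts in the PBS libraries (of 5834909 and 13155033 read pairs) and 458 and 183 in the IL-1β libraries (of 30871055 and 11681794), and was called lower with a log2 fold change of -0.94 ± 0.14 (SE; edgeR adjusted p = 0.0169). S100b had 44 and 46 counts with PBS and 71 and 26 with IL-1β, and its log2 fold change of -1.17 ± 0.43 was not called (adjusted p = 0.139). The others held 0 to 21 counts over all 14 libraries together. S100a5 had 5, 2 and 5 counts in the LSK PBS libraries, 2 counts in LK PBS replicate 2 and none elsewhere.

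Receptors that sense S100 proteins were measured beside them. Of 8 such genes (Tlr4, Ly96, Cd14, Ager, Bsg, Cd36, Alcam and Nptn), none of 7 tested was called in LSK cells, 1 of 7 was called higher in LK cells, and of 8 in MSC 2 were called higher and 3 lower. Of all genes tested, 0.32% were called higher and 0.312% lower in LSK cells, 6.77% and 2.57% in LK cells, and 7.14% and 4.31% in MSC. Tlr4, which encodes the toll-like receptor that S100A8 and S100A9 engage, was at 2.06 to 3.38 CPM in LK cells with PBS and at 11 and 17.9 CPM with IL-1β, and its log2 fold change was 2.56 ± 0.34 (SE; edgeR adjusted p = 0.00458). In LSK cells Tlr4 was at 4.38 to 8.59 CPM with PBS and at 6.21 and 9.53 CPM with IL-1β, which overlapped. The difference between the responses, -2.38 ± 0.61 (SE, log2), was not called (interaction test, adjusted p = 0.159).

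In MSC, Tlr4 and the co-receptor gene Cd14 were called higher (log2 fold changes 0.99 ± 0.21 and 1.40 ± 0.15, SE; edgeR adjusted p = 0.037 and 0.00604). Cd36, Alcam and Nptn were called lower (log2 fold changes -1.15, -0.76 and -0.56). Ager, the gene of RAGE, was not called in any population.

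Of 7 intracellular partners (Anxa1, Anxa2, Anxa6, Anxa11, Ahnak, Myh9 and Cacybp), 2 were called higher in LK cells and 2 lower in MSC. None was called in LSK cells. Of all genes tested, 6.77% were called higher in LK cells and 4.31% lower in MSC. The called partners were Anxa1 and Anxa2 in both cases, whereas the annexin genes Anxa6 and Anxa11 were not called. Anxa1 was at 42.0 to 66.2 CPM in LK cells with PBS and at 213 and 360 CPM with IL-1β (log2 fold change 2.58 ± 0.30, SE; edgeR adjusted p = 0.00779). In MSC it was at 1540 and 2000 CPM with PBS and at 667 and 706 CPM with IL-1β (-1.40 ± 0.15; adjusted p = 0.00595). Anxa1 was thus higher in LK cells and lower in MSC, as was S100a11.

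Anxa2 was called higher in LK cells (log2 fold change 1.03 ± 0.25, SE; edgeR adjusted p = 0.045), where S100a10 had its log2 fold change of -0.97. In MSC it was called lower (-0.92 ± 0.16; adjusted p = 0.0217). In LSK cells Anxa1 and Anxa2 had log2 fold changes of 1.12 ± 0.25 and 0.98 ± 0.22 and did not overlap between treatments, but were not called (adjusted p = 0.0802 and 0.0824). No other partner was called in any of these 3 comparisons.

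Levels also differed between LSK and LK cells. Under PBS, S100a6 was higher in LSK cells, at 9.62 to 25.4 CPM against 0.904 to 2.55 CPM, with a log2 difference (LSK minus LK) of 3.08 ± 0.53 (SE; edgeR adjusted p = 0.00111). S100a8 was lower in LSK cells, with a log2 difference of -2.16 ± 0.50 (adjusted p = 0.00627). These were the 2 calls among 7 genes tested, 1 in each direction, where 19.4% of all genes tested were called higher in LSK and 12.4% lower.

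S100a9 had a log2 difference of -2.38 ± 0.94 (SE) under PBS and was not called (edgeR adjusted p = 0.0715). Blocking on the replicate number, it was -2.28 and was called lower (adjusted p = 0.0019), as it was by DESeq2 (0.047), with no filter on low counts (2.29e-06) and without LK PBS replicate 2 (0.0358). S100a8 was not called by limma-voom (adjusted p = 0.0564).

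With IL-1β, S100a6 was again higher in LSK cells (9.42 and 17.3 against 1.83 and 0.743 CPM), with a log2 difference of 3.34 ± 0.70 (SE; edgeR adjusted p = 0.0209). S100a8 and S100a9 were lower in LSK cells, with log2 differences of -3.73 ± 0.49 and -3.85 ± 0.83 (adjusted p = 0.00203 and 0.0232). That made 1 gene higher and 2 lower of 7 tested, where 2.13% of all genes tested were called higher and 2.27% lower. The S100a6 call was lost without LSK IL-1β replicate 2 (adjusted p = 0.093), LK IL-1β replicate 1 (0.0888) or LK IL-1β replicate 2 (0.243), and that of S100a9 without any 1 of the 4 IL-1β libraries (0.0685 to 0.209).

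S100a11 was at 14.4 and 17.1 CPM in LSK and at 99.2 and 78.0 CPM in LK cells with IL-1β. Its log2 difference of -2.49 ± 0.68 (SE) was not called by edgeR (adjusted p = 0.0660) but was called by DESeq2 (0.00137), with no filter on low counts (2e-14), with the replicate block (0.00817), and without PBS replicate 2 of LSK (0.00212) or PBS replicate 3 of LSK (0.0404). S100a13, at 20.3 and 22.2 against 13.1 and 8.77 CPM, had a log2 difference of 0.96 ± 0.36 that, among the alternatives run, was called only without PBS replicate 2 of LSK (adjusted p = 0.049). Under PBS the log2 difference of S100a11 was -0.13 ± 0.51. The response to IL-1β was called different between LSK and LK cells for 0 of the 7 S100 genes by the interaction test with edgeR, where 2 had an unadjusted p under 0.05 (S100a8, 0.0472, and S100a11), where DESeq2 and limma-voom called 0 as well, and where 0.00723% of all genes were called higher and 0.0217% lower.

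**Figure D4:**
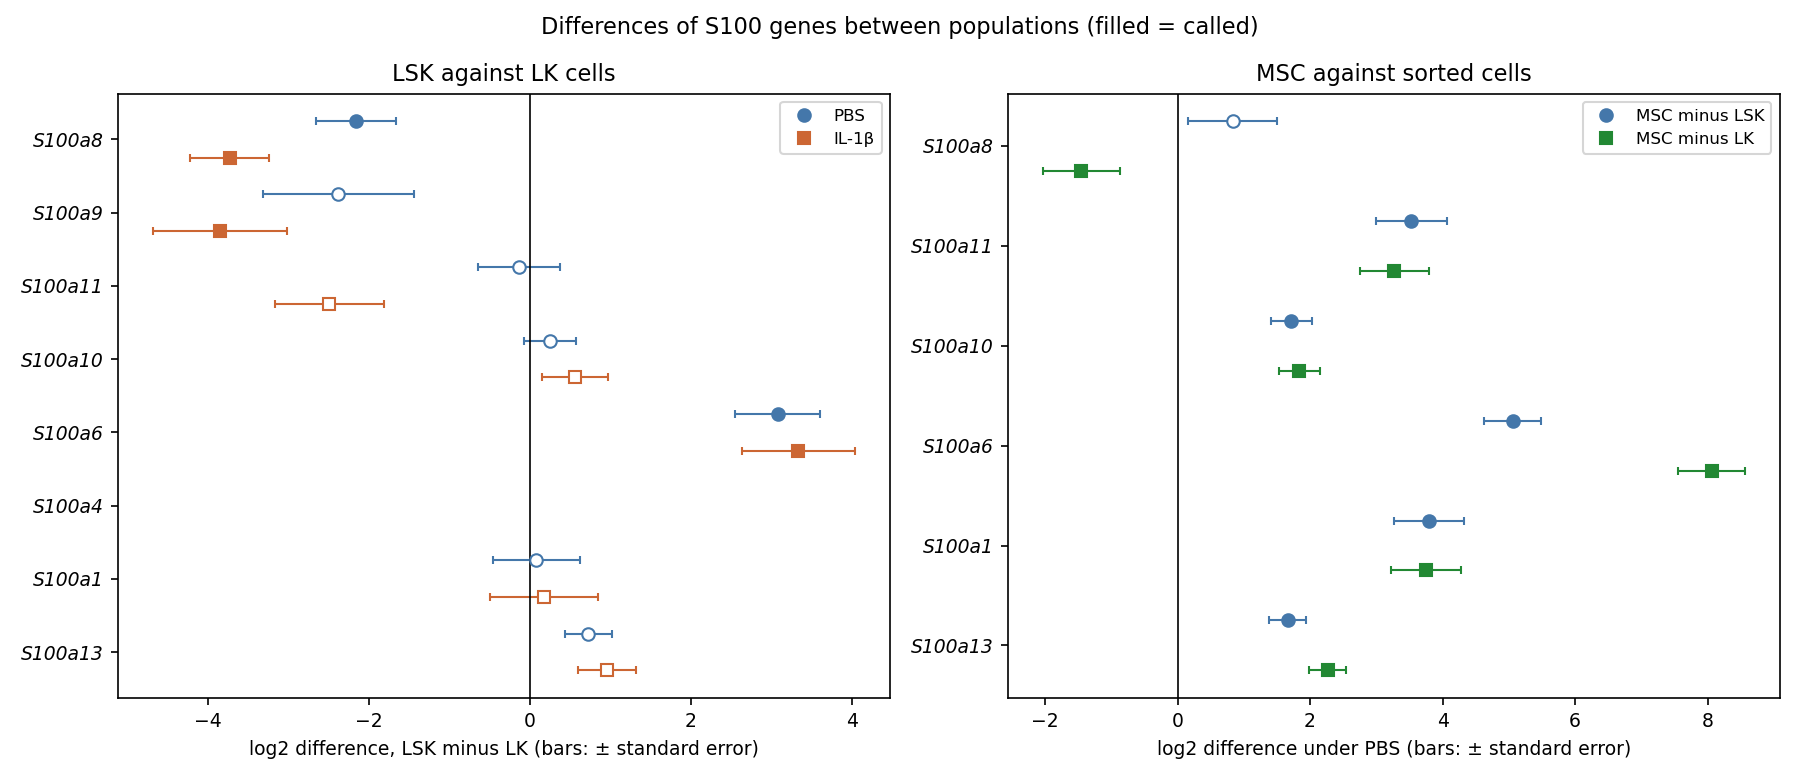
Log2 differences with standard errors between LSK and LK cells under PBS and IL-1β (left) and between MSC and each sorted population under PBS (right, without S100a4 and S100a9, which had 0 to 3 counts in 1 of the groups); filled markers are called. S100a6 was higher and S100a8 lower in LSK than in LK cells under both treatments, and 5 of the 6 genes on the right were higher in MSC than in either sorted population.

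MSC held more RNA of most S100 genes than either sorted population under PBS. Of the 8 genes, 6 were called higher in MSC than in LSK cells with 0 lower, where 31.2% of all genes tested were called higher and 27.2% lower. Against LK cells, 6 were called higher and 2 lower, where 31.9% were called higher and 29% lower. These counts include S100a4, which passed the filter only through the MSC libraries, and S100a9, which passed only through the sorted cells, so their calls are no support. Leaving both out, 5 of 6 genes were called higher than in LSK cells with 0 lower, and 5 higher and 1 lower than in LK cells. The log2 differences (MSC minus LSK, then MSC minus LK) were 5.06 ± 0.43 and 8.06 ± 0.50 (SE) for S100a6. For S100a1 they were 3.80 ± 0.53 and 3.75 ± 0.53, and for S100a11 3.53 ± 0.53 and 3.27 ± 0.52.

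S100a10 (1.72 ± 0.31 and 1.84 ± 0.31) and S100a13 (1.66 ± 0.28 and 2.27 ± 0.28) differed least among the genes called higher. The adjusted p of these 5 genes by edgeR was between 7.85e-09 and 0.000289. These values set cultured wild-type cells against sorted Jak2 mutant cells, so cell type, genotype and culture cannot be told apart.

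S100a4 had 181 counts over both MSC PBS libraries, against 3 counts over the LSK and 2 over the LK PBS libraries. The ratio of pooled CPM was 183 (95% exact conditional interval 61.6 to 896, counting error only) over LSK and 266 (72.7 to 2220) over LK cells. S100a16 was at least 190.0-fold higher in MSC than in LSK cells, taking 3 counts per library as the floor, and S100b at least 32.6-fold higher than in LK cells. S100a8 was called lower in MSC than in LK cells, with a log2 difference of -1.45 ± 0.58 (SE; edgeR adjusted p = 0.0433). That call was lost by DESeq2 (adjusted p = 0.0511), by limma-voom (0.19), and without any 1 of the 5 LK PBS and MSC PBS libraries (0.061 to 0.171). S100a9 had no counts in MSC, where 3 counts per library average 0.433 CPM, and only PBS replicate 1 of LK (3.35 CPM) was far above that level, the other LK PBS libraries being at 0.351 and 0.552 CPM.

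**Figure D5:**
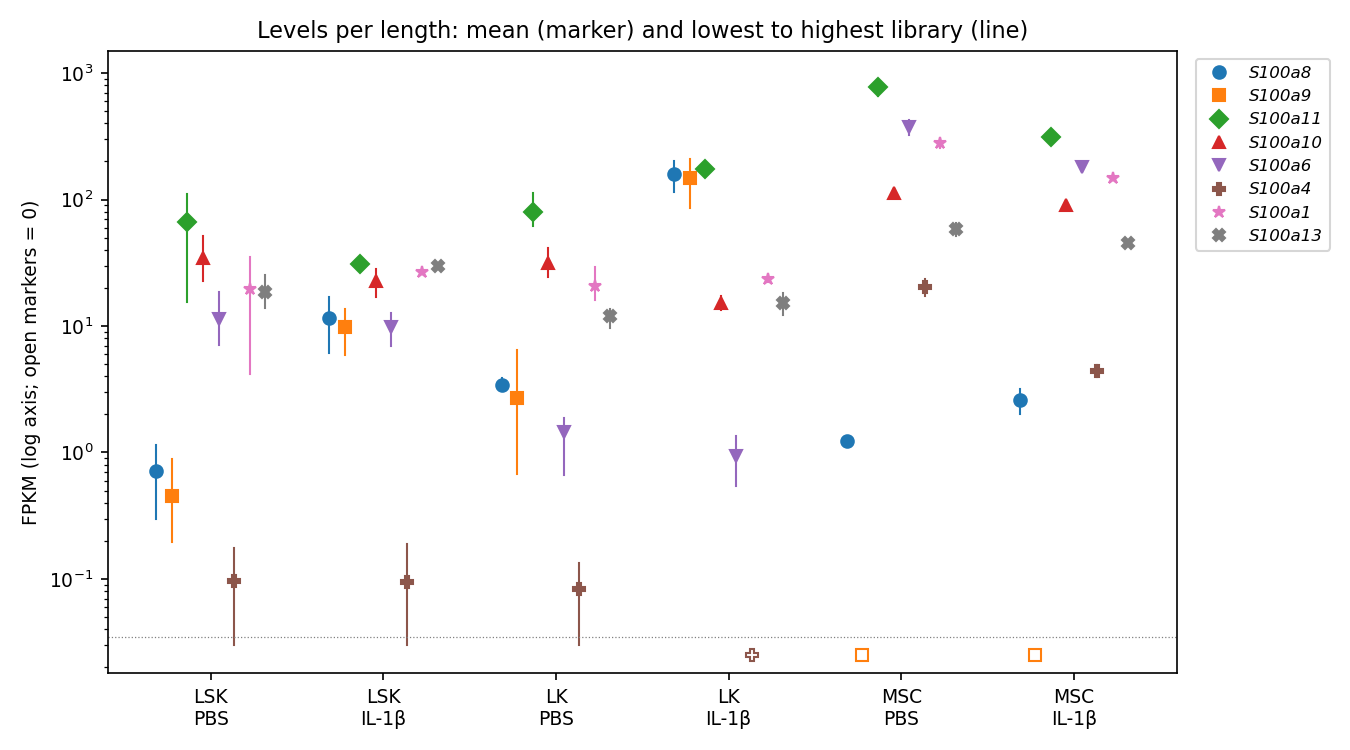
Level per length (FPKM, log axis) of each S100 gene by population and treatment; markers are group means, lines run from the lowest to the highest library, and open markers under the dotted line are groups with 0 counts. S100a11 had the highest mean in every group, and with IL-1β in LK cells S100a8 (159 FPKM) and S100a9 (147 FPKM) came next to it (173 FPKM).

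Per exonic length, S100a11 had the highest mean in all 6 groups, from 30.8 ± 3.61 FPKM (SD, n = 2) in LSK cells with IL-1β to 772 ± 160 FPKM (SD, n = 2) in MSC with PBS. That order rests on the length of all annotated exons (511 bases for S100a11, 1367 for S100a6, 1212 for S100a10), not of the transcripts present. In mean CPM with PBS, S100a6 was above S100a11 in MSC (512 against 395) and S100a10 in LSK cells (41.8 against 34.0), but not in LK cells (38.4 against 40.8). It overlapped with the next gene in LSK cells under both treatments and in LK cells with IL-1β. In LSK cells with PBS the order after S100a11 (66.6 ± 47.7 FPKM, SD, n = 3) was S100a10, S100a1, S100a13, S100a6, S100a8, S100a9 and S100a4. Neighbours in that order overlapped over the libraries, other than S100a6 with S100a8 (11.3 and 0.718 FPKM) and S100a9 with S100a4 (0.452 and 0.0965 FPKM). Beyond neighbours, S100a10 (22.6 to 51.0 FPKM) lay above S100a6 (7.04 to 18.6 FPKM) in every library.

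In LK cells S100a11 (79.9 ± 28.4 FPKM, SD, n = 3) stood clear of S100a10 (31.7 ± 8.93) under PBS. S100a8 and S100a9, at 3.44 ± 0.382 and 2.72 ± 3.21 FPKM, had means below that of S100a13, with no overlap between S100a13 and S100a8. S100a9 overlapped with S100a6 (1.45 ± 0.684 FPKM), since its mean rests on replicate 1 (6.42 FPKM). With IL-1β S100a8 and S100a9 were at 159 ± 63.0 and 147 ± 87.3 FPKM (SD, n = 2) and overlapped with S100a11 at 173 ± 29.3 FPKM, while S100a1, the next gene, was at 23.6 ± 2.18 FPKM and did not overlap with S100a9. S100a10 had the mean next to that of S100a11 with PBS, and with IL-1β (15.3 ± 2.72 FPKM) it was below S100a1 without overlap.

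In MSC the order was the same under both treatments, S100a11, S100a6, S100a1, S100a10, S100a13, S100a4, S100a8 and S100a9, and no neighbours overlapped. With PBS the means were 772, 374, 278, 113, 58.3, 20.5 and 1.23 FPKM, with S100a9 at 0. With IL-1β they were 309, 180, 148, 90.1, 45.5, 4.43 and 2.61 FPKM. The FPKM of S100a4 divides by all 584 exonic bases, of which 302 are shared with Gm42674. Read pairs that fit both genes were not counted, so its level and place in the order may be too low.

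The genes outside the family whose log2 CPM followed each S100 gene most closely were found over all 14 libraries, whose points share population, treatment and depth, and are given as a description. S100a6 went with Anxa5 and Vim (Pearson r = 0.99 for each), which encode annexin A5 and the intermediate filament vimentin. S100a4 went with Coro1c, Prr13 and Tpm1 (r = 0.98 for each), of which Coro1c and Tpm1 encode actin-binding proteins. S100a13 went with Fam174a, Rabac1 and Rhoa (r = 0.98 for each), and S100a10 with Bbc3 (r = 0.98). S100a8 went with Agps, Atrn (r = 0.95 for each) and Tmx4 (r = 0.93), and S100a9 with Stt3a, Sec61a1 (r = 0.94 for each) and likewise Tmx4 (r = 0.93).

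Over the 10 LSK and LK libraries alone, S100a9 went with Fcer1a and Chil3 (Pearson r = 0.97 for each) and Alox5 (r = 0.96), which encode a chain of the IgE receptor, a chitinase-like lectin of myeloid cells and 5-lipoxygenase. S100a8 went with Stt3a and Ero1l (r = 0.97 for each), genes of glycosylation and disulphide formation in the endoplasmic reticulum, and with Rflnb (r = 0.96).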

How the data were processed

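The authors trimmed reads of rRNA-depleted libraries with fastp 0.20.0, aligned them to GRCm38 with HISAT2 2.0.1 and, per the file headers, counted reverse-stranded read pairs on Ensembl genes with featureCounts 2.0.2; the methods name GenomicAlignments. The deposited values are raw counts per gene. By the default settings, read pairs over several genes or places were not counted. In this re-analysis, counts were tested with edgeR 4.0.16 (filterByExpr, TMM, robust quasi-likelihood test) in R 4.3.3, within each population for IL-1β, over 10 libraries for LSK against LK and over 14 for MSC against sorted cells, with Benjamini-Hochberg adjustment over all genes tested. The SE is the log2 fold change divided by the square root of F. FPKM used the tables' gene lengths. DESeq2 1.42.0, limma-voom (limma 3.58.1), other normalizations and filters, a joint fit, a replicate block and leaving out each library were alternatives. The fits were tested on simulated data.

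Same-numbered LSK and LK PBS libraries had correlations of 0.211, 0.128 and 0.472 in their deviations from the group means. Those of different numbers had -0.381 to 0.162, so replicate 2 did not stand out from them. Blocked values are given where they change a call, and whether same-numbered libraries came from the same mouse is not stated. The genes and lists were chosen with earlier results of these data known. Likeness was the Pearson correlation of log2 CPM (prior count 2) among genes with a mean of at least 1 log2 CPM. Floors and intervals cover counting error only, since PCR copies were not told apart. Azu1 of the primary granule list was not analysed here. A further IL-1β-treated MSC library named in a header was not analysed here.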

Additional observations from a re-analysis of the deposited data

Results flagged for a closer look

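S100a11 moved in opposite directions with IL-1β in LK cells, where both IL-1β libraries were above all PBS libraries (log2 fold change 1.19), and in MSC, where both were below (-1.36). S100a13 likewise had both IL-1β libraries above all PBS libraries in LSK cells (log2 fold change 0.68, not called) and below them in MSC (-0.40, not called). The difference between the populations was not tested in either case, and the sorted cells and the cultures differed in genotype, dose and duration.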

How the results depend on the processing

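Of the counts of called S100 genes, those of LSK cells with IL-1β (0) became 2 higher with DESeq2, without a filter on low counts and in the joint fit, and 1 higher (S100a8, adjusted p = 0.0416) with the replicate block. The LSK calls by DESeq2 and with the block, and that of S100a9 in the joint fit, came after a filter passed only with the IL-1β libraries. They are therefore no support. Over all genes, higher calls in LSK cells rose as well, from 42 of 13132 to 417 of 12367 with DESeq2 and 355 of 21196 without a filter. They were 547 of 13839 in the joint fit and 314 of 13132 with the block. In LK cells 1 gene (S100a10) became called lower with DESeq2, upper-quartile factors, no filter, or the replicate block. Over all genes, lower calls in LK cells were 330 as reported and 448, 390, 693 and 869 in these settings. Within a population the block pairs PBS and IL-1β libraries by number, a pairing that the labels do not state. For LSK against LK cells under PBS the count called lower (1) became 2 with DESeq2, no filter or the block and 0 with limma-voom, and under IL-1β the count called higher (1) became 0 with limma-voom. The count called lower under IL-1β (2) became 3, with S100a11 added, by DESeq2, no filter or the block (adjusted p = 0.00817). Without a filter 1 gene was called lower in the interaction and 1 in MSC against LSK cells, and the 2 called lower in MSC against LK cells became 1 with DESeq2 or its size factors and 0 with limma-voom. Leaving out 1 library gave 0 to 1 called lower in LSK cells, 1 to 3 higher and 0 to 1 lower in LK cells, 0 to 5 lower in MSC, 1 to 2 lower for LSK against LK cells under PBS, 0 to 2 higher and 1 to 3 lower under IL-1β, 0 to 1 lower in the interaction and 0 to 2 lower in MSC against LK cells. The cause was not tested, except that fewer libraries leave less to estimate the spread.

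Among the log2 values of the 8 genes, signs turned only for values that were not called. For LSK against LK cells under PBS, S100a1 (0.08) was -0.23 with limma-voom, -0.03 without a filter and -0.26 with the block. With 1 library left out it ranged from -0.64 to 0.56, S100a11 (-0.13) from -0.70 to 0.34 and S100a10 (0.25) from -0.15 to 0.50. In the LSK response S100a1 (0.42) ranged from -0.04 to 1.16 and S100a6 (-0.21) from -0.68 to 0.35. In the interaction S100a1 (0.10) ranged from -0.38 to 0.82, S100a6 (0.26) from -0.24 to 1.12 and S100a10 (0.31) from -0.10 to 0.72.

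PBS and IL-1β libraries of the same number had correlations of -0.102 to 0.126, and the 2 pairs of LSK and LK IL-1β libraries had 0.1. No paired analysis was possible in MSC because the treatments share 1 number only. The called genes among all genes ranged widely over the alternatives, for higher calls from 3 to 547 in LSK (42 as reported), 61 to 1499 in LK (869) and 38 to 2038 in MSC (945), and for lower calls from 0 to 681 (41), 5 to 910 (330) and 0 to 1781 (570). In LSK cells 2431 of 13132 genes had an unadjusted p under 0.05. Depth limits S100a8, S100a9 and S100a4 where their libraries held few counts.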
